A study of Homo sapiens with 12 samples.

Results

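This report describes 272 stretches of open chromatin that had a peak in every library of the series but ranked lower among the shared peaks when SMARCB1 was induced. They were taken from 187088 regions made by merging the peaks of all 12 lists where these overlapped by at least 1 bp. A peak was present in all 12 libraries in 18114 of them, of which 18058 were under 1000 bp wide. For each shared region, the highest fold enrichment of its peaks was ranked within each library among the 18114, giving a percentile in which 100 is the strongest. A region was taken when its mean percentile was at least 10 points lower in the 6 SMARCB1 libraries than in the 6 GFP libraries and its highest SMARCB1 percentile lay below its lowest GFP percentile. The 272 regions are 1.51% of the shared regions under 1000 bp, and the mirror rule took 596 regions that ranked higher with SMARCB1. The fold percentiles of SMARCB1 and GFP libraries chose the regions, so their values in that contrast are given as a description and carry no test.

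The data are ATAC-seq peak lists from G401, an established rhabdoid tumour cell line with the genotype SMARCB1(-/-). All cells received doxycycline for 24 h, which induced SMARCB1 or, in the controls, GFP. Along with doxycycline the cells received DMSO or dBRD9-A. The 4 groups, GFP with DMSO, GFP with dBRD9-A, SMARCB1 with DMSO and SMARCB1 with dBRD9-A, had 3 libraries each. All 4 groups therefore share the parental deletion and the doxycycline, and all come from a single line. The dose of dBRD9-A, the promoter of the induced genes and whether the replicates were separate cultures are not given in the sources used here, so p-values measure the spread between these libraries.

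SWI/SNF complexes use ATP to move or evict nucleosomes and so open DNA to transcription factors. SMARCB1 is a core subunit of the canonical and the PBAF forms of the complex, and its loss is the defining lesion of rhabdoid tumours. BRD9 belongs to the non-canonical form, which assembles without SMARCB1, and dBRD9-A is a compound that leads to degradation of BRD9. In ATAC-seq a transposase cuts accessible DNA, so that a nucleosome-free site appears as a pile of short fragments. The fold of a peak, as the authors' peak caller gives it, is the pileup at the summit plus 1 divided by the local background plus 1. Pileups are given here as fragments, although whether the caller counted fragments or reads is not given in the sources used here.

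Coordinates are 1-based in hg19, the build named in the submitters' processing notes. A genome or annotation of that build was not used here, so genes, promoters, motifs and sequences of these regions were not analysed here. Peak lists do not measure SMARCB1 or BRD9 themselves, so the induction and the degradation were not checked. Depth was judged from the lists. They held 33428 to 50089 peaks in GFP and 71169 to 96572 in SMARCB1 libraries, and the lowest background pileup of a library ranged from 0.0383 to 0.0784 fragments in GFP and from 0.0487 to 0.111 in SMARCB1 libraries. The means of this lowest pileup, which follows depth, were 0.0517 ± 0.0171 and 0.0790 ± 0.0254 (SD, n = 6 each). Ranks within a library compare a region only with the other regions of that library. Ratios of pileups and of backgrounds are given without adjustment for depth, so a ratio of 1 is not a depth-adjusted level.

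The 272 regions were of upper-middle strength in GFP cells and of low strength in SMARCB1 cells. Their median percentile was 62.9, 65.7 and 65.5 in GFP DMSO replicates 1, 2 and 3, and 63.6, 64.5 and 65.2 in GFP dBRD9-A replicates 1, 2 and 3. It was 27.0, 26.4 and 25.7 in the SMARCB1 DMSO libraries and 26.0, 25.7 and 26.8 in the SMARCB1 dBRD9-A libraries. All 6 GFP libraries lay well above all 6 SMARCB1 libraries, as the choice of the regions requires. The members' median fold was 17.8, 13.6 and 13.2 in GFP DMSO, 12.8, 13.6 and 17.8 in GFP dBRD9-A, 8.95, 9.92 and 9.09 in SMARCB1 DMSO and 10.2, 7.88 and 9.98 in SMARCB1 dBRD9-A. Other shared regions under 1000 bp had median folds of 10.7 to 15.4 in GFP and 10.5 to 13.8 in SMARCB1 libraries, so that members lay above them in each GFP library and below them in each SMARCB1 library. In a SMARCB1 library between 57 and 73 of the 272 regions were still at or above the 50th percentile, against 177 to 191 in a GFP library.

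**Figure D1:**
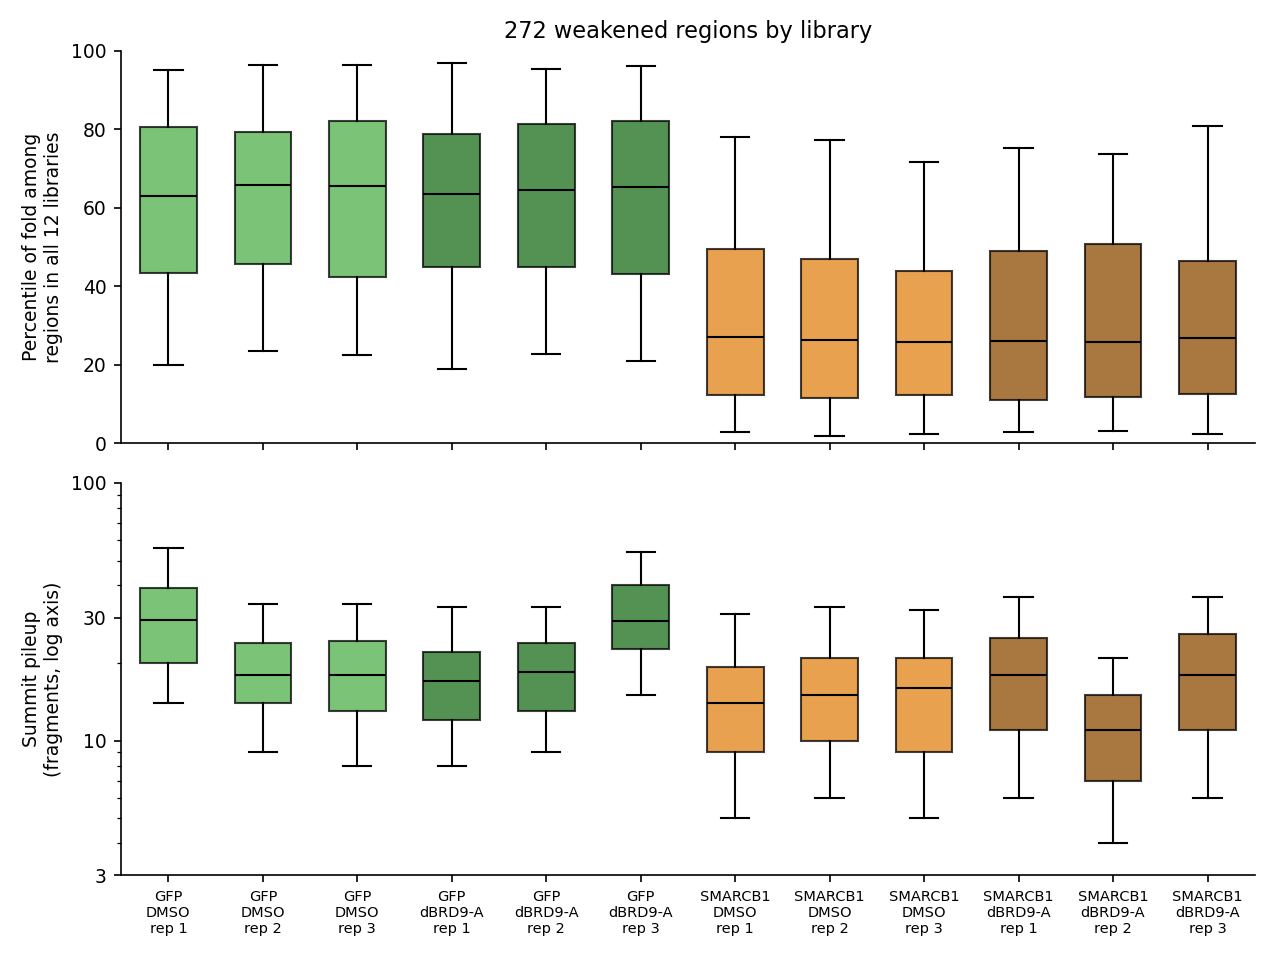
Each box shows the 272 regions in a single library (box, quartiles; line, median; whiskers, 5th to 95th percentile of regions), with the fold percentile in the upper panel and the summit pileup on a log axis in the lower panel. The medians of the percentile lie between 62.9 and 65.7 in GFP and between 25.7 and 27.0 in SMARCB1 libraries, while the pileups, which also follow depth, overlap between the inductions.

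The difference in mean percentile ranged from −76.1 to −10.3 points over the regions, with a median of −29.9 and quartiles of −36.6 and −23.0. Its size can be set against the spread between libraries. The SD of a region's percentile had a median of 9.92 points over the 6 GFP libraries and 8.74 points over the 6 SMARCB1 libraries. Over all 18114 shared regions these medians were 12.4 and 11.8 points, and a rule that asks for groups without overlap favours regions of small spread. The gap between the lowest GFP and the highest SMARCB1 percentile was narrow in many regions, with a median of 4.60 points and a range from 0.0166 to 52.1.

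Members came from most of the range of GFP strength. The mean GFP percentile was 75 or more in 86 regions, 50 or more in 185 and under 25 in 10. With SMARCB1, 133 regions had a mean under 25 and 58 a mean of 50 or more. From GFP to SMARCB1, 127 regions crossed from at or above the 50th percentile to below it. The mean fold was lower with SMARCB1 in all 272, which the choice by the rank of that fold largely fixes. In 93 of the 272 the folds of single libraries did not overlap between the inductions. Of all 18058 shared regions under 1000 bp, 144 had lower folds without overlap and a mean percentile at least 10 points lower. The members' ratio of mean folds, SMARCB1 to GFP, had a median of 0.658 and a range from 0.341 to 0.850. It was under 0.5 in 8 members. For the 17190 shared regions under 1000 bp that met neither this rule nor its mirror, the median ratio was 0.974.

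**Figure D2:**
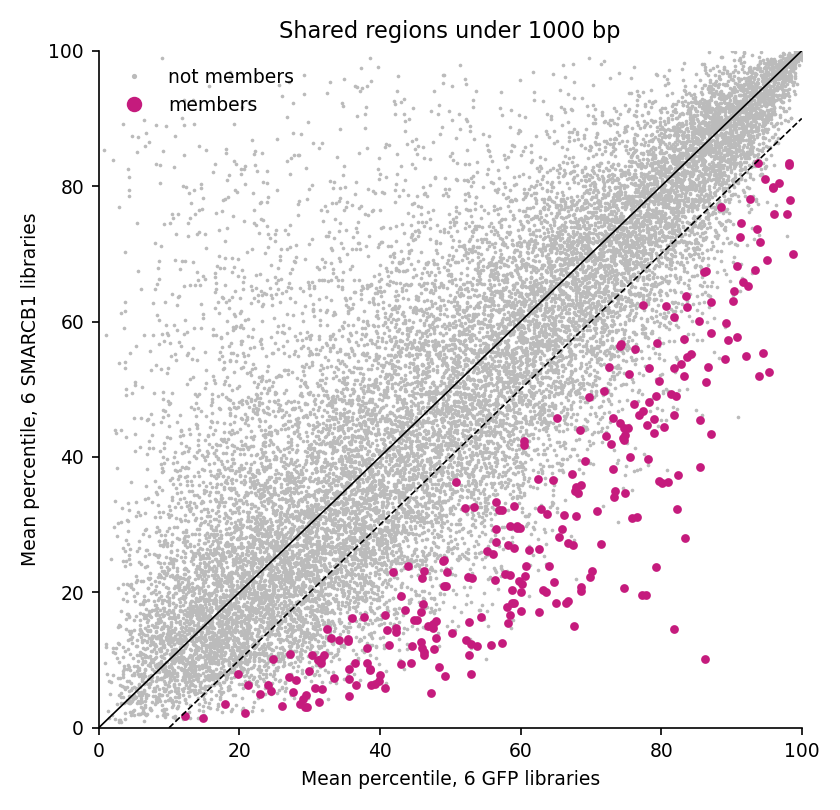
Each point is a shared region under 1000 bp, at its mean fold percentile over 6 GFP libraries (horizontal) and 6 SMARCB1 libraries (vertical); the solid line marks equal means and the dashed line a difference of 10 points. The 272 members lie below the dashed line at mean GFP percentiles from 12.3 to 98.7, and many regions below that line are not members because their libraries overlapped.

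The threshold of 10 points decided little, and the demand for groups without overlap decided most. Of the shared regions under 1000 bp, 3913 had a mean at least 10 points lower with SMARCB1, and in 3641 of them the libraries of the inductions overlapped. Only 7 regions without overlap stayed outside because their difference was under 10 points. Just inside were regions at chromosome 7, 44835703 to 44836306, with −10.3 points, at chromosome 12, 56882129 to 56882306, with −10.5, and at chromosome 3, 120461062 to 120461607, with −11.7. Just outside were regions at chromosome 15, 75497136 to 75497363, with −9.61, at chromosome 20, 271005 to 271451, with −9.29, and at chromosome 16, 81129883 to 81130278, with −8.81. Of the 56 shared regions of 1000 bp or more, 1 met the rest of the rule.

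The 8 regions with the largest difference were examined library by library. The largest was at chromosome 2, 208030787 to 208031178, 392 bp wide. Its percentile was 79.8, 84.9 and 84.4 in GFP DMSO, 93.5, 84.4 and 90.5 in GFP dBRD9-A, 15.6, 4.59 and 3.22 in SMARCB1 DMSO and 27.7, 3.95 and 6.15 in SMARCB1 dBRD9-A replicates 1, 2 and 3. The mean was 86.3 ± 4.91 with GFP and 10.2 ± 9.72 with SMARCB1 (SD, n = 6 each). The site was thus among the stronger shared peaks in each GFP library and among the weaker in each SMARCB1 library.

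The fragments behind that region were few. Its summit pileup was 51, 33 and 32 fragments in GFP DMSO and 34, 28 and 57 in GFP dBRD9-A. In SMARCB1 cells it was 7, 6 and 5 fragments in DMSO and 11, 4 and 7 in dBRD9-A. The exact 95% Poisson intervals cover counting error only and take each unit of the pileup as an independent count. They were 18.6 to 40.5 for the lowest GFP pileup (28, GFP dBRD9-A replicate 2). For the highest SMARCB1 pileup (11, SMARCB1 dBRD9-A replicate 1) they were 5.49 to 19.7. The intervals of this closest pair of libraries thus overlapped, which does not show that the pileups were alike. These libraries also differed in their lowest background pileup, which follows depth. It was 0.0383 in GFP dBRD9-A replicate 2 and 0.0950 in SMARCB1 dBRD9-A replicate 1. The region was chosen for its difference between SMARCB1 and GFP, and the intervals are no test of it. The ratio of mean pileups was 0.170, the lowest of the 272 regions, and its background was lower too, with a ratio of 0.132.

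The region at chromosome 13, 20392479 to 20392698, came next, with a difference of −67.2 points. Its percentile was 75.1, 83.2 and 94.9 in GFP DMSO, 75.3, 68.9 and 93.9 in GFP dBRD9-A, 8.29, 0.0359 and 19.5 in SMARCB1 DMSO and 15.3, 3.66 and 41.1 in SMARCB1 dBRD9-A. In SMARCB1 DMSO replicate 2 it was the weakest of all members, resting on a summit pileup of 2 fragments. Its pileups were otherwise 16 to 35 fragments in GFP and 4 to 14 in SMARCB1 libraries.

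At chromosome 11, 64124011 to 64124241, the libraries within an induction lay close together. The percentile was 70.4, 77.0 and 80.6 in GFP DMSO and 71.5, 82.9 and 65.6 in GFP dBRD9-A, against 25.9, 12.7 and 25.7 in SMARCB1 DMSO and 20.3, 17.6 and 21.98 in SMARCB1 dBRD9-A. Means were 74.7 ± 6.63 and 20.7 ± 5.06 (SD, n = 6 each). The ratio of mean pileups was 0.476 and that of backgrounds 0.911, so without adjustment for depth the pileup differed far more than the background.

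At chromosome 12, 122501976 to 122502273, the picture was the reverse. The percentile was 88.2, 64.0 and 87.6 in GFP DMSO and 86.6, 95.5 and 78.5 in GFP dBRD9-A, against 24.1, 28.2 and 31.8 in SMARCB1 DMSO and 32.1, 25.5 and 26.8 in SMARCB1 dBRD9-A. The summit pileups overlapped, with 17 to 41 fragments in GFP and 13 to 31 in SMARCB1 libraries, and the ratio of their means was 0.842. The local background was 3.11 times as high with SMARCB1. A region gained with SMARCB1, meaning present in 6 of 6 SMARCB1 and 0 of 6 GFP libraries, lay 0.544 kb away.

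Of the remaining 4, the region on chromosome 19 spanned 6552006 to 6552244 and differed by −58.2 points, and that on chromosome 18 spanned 75362851 to 75362998 and differed by −57.6. The region on chromosome 6, from 36750570 to 36750835, differed by −55.5 points, and the region on chromosome 5, from 176928071 to 176928205, by −52.6. Their mean percentiles with GFP lay between 67.6 and 79.2 and with SMARCB1 between 15.01 and 23.7. Their pileup ratios ran from 0.364 to 0.559. The region on chromosome 18 had the least even libraries, from 60.01 to 95.2 in GFP and from 1.005 to 50.1 in SMARCB1 libraries.

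**Figure D3:**
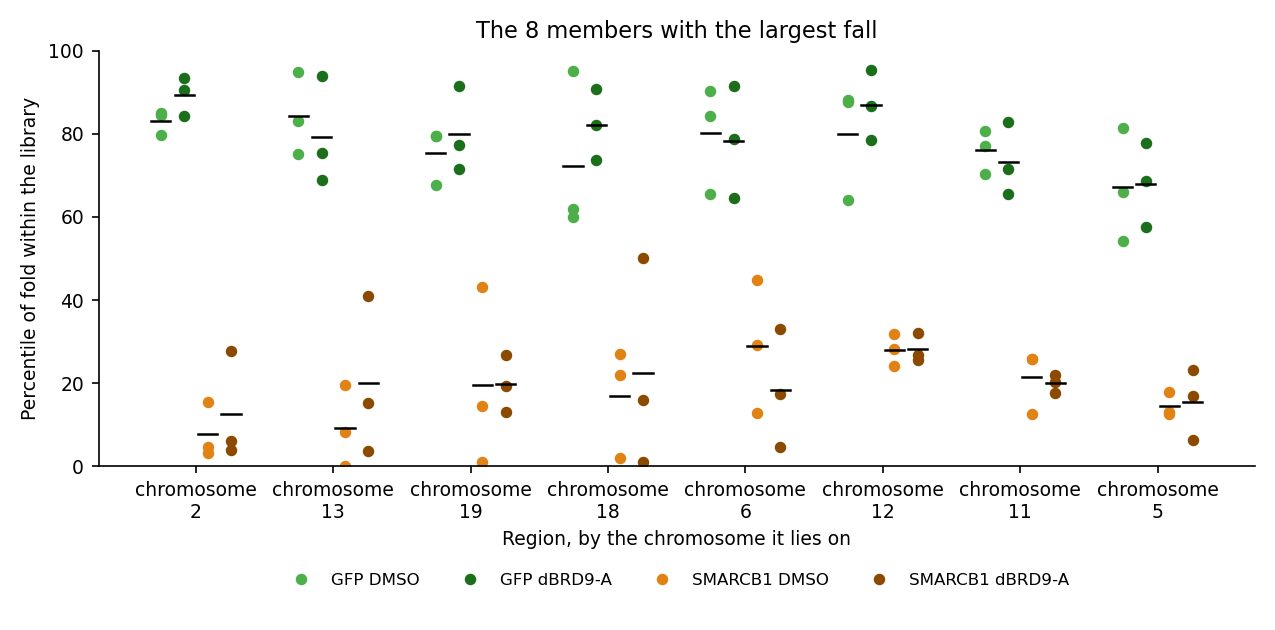
Points are single libraries and bars the mean of 3 libraries, as the percentile of the fold within the library, for the 8 regions of largest difference, named by chromosome. Each region has all 6 GFP libraries above all 6 SMARCB1 libraries, and the groups with DMSO and dBRD9-A lie side by side within an induction.

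The 4 regions that were strongest in GFP cells differed by −28.8, −20.5, −14.8 and −15.0 points, while all members above the 75th GFP percentile had a median of −29.0. At chromosome 8, 127522647 to 127522812, the percentile was between 97.8 and 99.3 in the GFP libraries and between 49.99 and 84.6 in the SMARCB1 libraries, with means of 98.7 ± 0.586 and 69.9 ± 14.5 (SD, n = 6 each). Its fold was 22.9 to 33.6 with GFP and 13.2 to 19.1 with SMARCB1, again without overlap. The region on chromosome 17 that spans 79700856 to 79700994 had a mean percentile of 98.4 with GFP and 77.9 with SMARCB1. On chromosome 14, from 21776882 to 21777230, the means were 98.2 and 83.5, and on chromosome 5, from 148944348 to 148944564, they were 98.1 and 83.2. The region on chromosome 5 had nearly equal pileups, with a ratio of 0.968, and a background 2.32 times as high with SMARCB1. A gained region lay 1.81 kb from it.

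Because the fold divides a pileup by a background, each was also described separately. Over the 272 regions the ratio of mean summit pileups, SMARCB1 to GFP, had a median of 0.661 and a range from 0.170 to 1.29, and it was under 1 in 262 regions. The ratio of mean backgrounds had a median of 1.07 and a range from 0.132 to 5.48, and it was over 1 in 155 regions and over 1.5 in 63. The other shared regions under 1000 bp had median ratios of 1.0 for the pileup and 1.13 for the background. Regions were also ranked within each library by pileup in place of fold. Of the 272, 265 then had a lower mean percentile with SMARCB1, with a median difference of −22.02 points, and 157 met the whole rule. The pileup enters the fold and comes from the libraries that chose the members. Lower pileups among the members are therefore favoured by the choice and carry no test. By pileup the rule took 319 regions, 1.77% of the shared regions under 1000 bp, so that 157 were 57.7% of the regions chosen by fold and 49.2% of those chosen by pileup. Unranked pileups, which also follow depth, did not overlap between the inductions in 24 of the 272 regions. The members were chosen for groups without overlap, and the count over all shared regions is not given here. The 24 are therefore a description.

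Members lay near regions gained with SMARCB1 more often than other shared regions did. There were 13634 gained regions, and 55 of the 272 members (20.2%) had a gained region within 5 kb. Of the regions that ranked higher with SMARCB1 30 of 596 (5.03%) did, and of the other shared regions under 1000 bp 817 of 17190 (4.75%). Within 1 kb the shares were 3.31%, 1.68% and 0.937%, and within 10 kb 29.4%, 17.1% and 11.9%, in the same order. The median distance to a gained region was 32.0 kb for the members, 37.2 kb for the regions that ranked higher and 52.3 kb for the others. Gained regions are defined by the same contrast as the members, so these shares are a description.

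The pileup and the background differed between members near to and far from gained regions. Both follow depth, and their ratios were not adjusted for it. In the 55 members within 5 kb, the background ratio had a median of 1.74 and the pileup ratio a median of 0.844, and 12 of the 55 (21.8%) met the rule by pileup. In the 217 members farther away, the background ratio had a median of 0.985 and the pileup ratio a median of 0.621, and 145 of the 217 (66.8%) met the rule by pileup. The difference in fold percentile was alike in both sets, with medians of −30.1 and −29.8 points. A high background near gained regions was not particular to the members: the 817 other shared regions within 5 kb of a gained region had a median background ratio of 1.69, with a pileup ratio of 1.06 and a difference in fold percentile of −6.20 points.

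**Figure D4:**
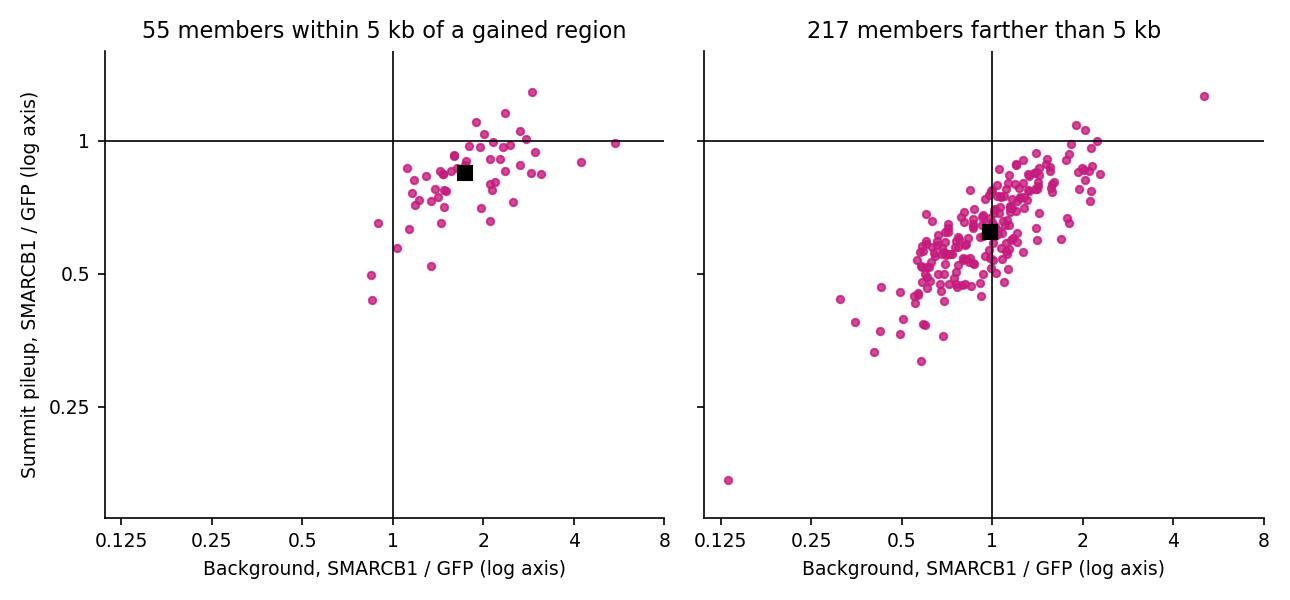
Each point is a member, at its ratio of mean background (horizontal, log axis) and of mean summit pileup (vertical, log axis), SMARCB1 to GFP, with members within 5 kb of a gained region on the left and the rest on the right; black squares are medians and lines mark a ratio of 1. Members near gained regions centre on a background ratio of 1.74 and a pileup ratio of 0.844, and the rest on 0.985 and 0.621. The ratios are not adjusted for depth, so the lines are not depth-adjusted levels.

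The share beside gained regions depended on the measure by which regions were chosen. Of the 319 regions chosen by pileup, 15 (4.70%) had a gained region within 5 kb, beside 4.995% of all shared regions under 1000 bp. Of the 115 chosen by fold and not by pileup, 43 (37.4%) did, with a median background ratio of 1.52. Of the 157 chosen by both measures, 12 (7.64%) did, with medians of 0.847 for the background ratio and 0.575 for the pileup ratio.

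The nearness to gained regions varied with the strength of a member in GFP cells. Among members with a mean GFP percentile above 75, 26 of 86 (30.2%) had a gained region within 5 kb, against 4.03% of the 3872 other regions of that strength. Between 50 and 75 it was 22 of 99 (22.2%, against 5.12%), between 25 and 50 it was 7 of 77 (9.09%, against 5.18%), and up to 25 it was 0 of 10 (against 4.45%). The share of members beside a gained region was thus higher at higher GFP strength, while that of the others stayed between 4.03% and 5.18%.

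Members were also narrower by median than other shared regions, except at the lowest GFP strength. The merged region had a median width of 227.5 bp, against 279 bp for the others and 354.5 bp for the regions that ranked higher with SMARCB1, and 189 of the 272 (69.5%) were under 300 bp, against 55.6% of the others. Other shared regions were wider where they were stronger, with a median of 226 bp up to the 25th GFP percentile and 342 bp above the 75th. Members above the 75th had a median of 264 bp. The 10 members up to the 25th had a median of 242.5 bp, wider than the others of that strength. The widest peak of a member had a median width of 137 to 184 bp over the GFP libraries and 119.5 to 145 bp over the SMARCB1 libraries. For the others these ranges were 165 to 205.5 bp and 188 to 212 bp. The widest peak was narrower with SMARCB1 in 201 of the 272 members, against 5741 of the 17190 others. Widths of peaks in the inductions belong to the contrast that chose the members, and the merged width takes in the peaks of both inductions.

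The summits of the members stayed in place. The median shift between the middle GFP and the middle SMARCB1 summit was 4.5 bp, against 5 bp for the others and 12 bp for the regions that ranked higher. The range of summit positions over all 12 libraries had a median of 37 bp, against 52 and 103.5 bp. In 20 of the 272 regions (7.35%) any library split the region into more than 1 peak, against 9.63% of the others.

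The members were spread over the genome. They lay on 23 chromosomes, with the Y chromosome, which holds 8 shared regions under 1000 bp, as the exception. The share of shared regions that were members was highest on chromosome 7, with 21 of 846 (2.48%), and on chromosome 12, with 22 of 968 (2.27%). It was lowest, apart from Y, on chromosome X, with 1 of 222 (0.450%), and was 7 of 1190 (0.588%) on chromosome 2. Another member lay within 10 kb of 4 members and within 100 kb of 30. The nearest region shared by all 12 libraries was at a median of 14.3 kb from a member and 20.0 kb from the others.

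The comparison of dBRD9-A with DMSO asks whether degradation of BRD9 shifts these sites. It did not enter the rule as a contrast, but the rule asks for no overlap over libraries that pool DMSO and dBRD9-A, which disfavours regions with a large dBRD9-A difference. Counts over the members are therefore not comparable with those over all regions, and the lack of calls is a statement on these 272 regions alone. In limma fits of the percentiles over all 18114 shared regions, with Benjamini-Hochberg adjustment over all of them, 0 of the 272 members were called at an adjusted p under 0.05 for dBRD9-A averaged over the inductions, and 0.0% of all regions were. The lowest adjusted p among the members was 0.874. Unadjusted p-values were under 0.05 in 10 members (3.68%), against 5.12% of all regions. The averaged difference, dBRD9-A minus DMSO, had a median of 0.297 points over the members and −0.0258 over all regions, with quartiles of −3.64 and 3.89 points over the members.

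Within the inductions the same held. In GFP cells 0 members were called by limma, and 0.0166% of all regions, with a median difference of 0.746 points over the members. Unadjusted p-values were under 0.05 in 7 members, against 5.56% of all regions. In SMARCB1 cells 0 members and 0.0% of all regions were called, with a median of 0.192 points. Unadjusted p-values were under 0.05 in 8 members, against 3.93% of all regions. The mean was higher with dBRD9-A in 148 of the 272 members in GFP cells and in 141 in SMARCB1 cells.

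The interaction, which asks whether the difference between SMARCB1 and GFP depends on dBRD9-A, was called by limma in 0 members and in 0.0% of all regions. Its unadjusted p was under 0.05 in 6 members, against 4.13% of all regions. The SMARCB1 and GFP libraries of both treatments chose the members, so few interaction calls are largely fixed by the choice. The difference between SMARCB1 and GFP, given as a description, had a median of −30.2 points in DMSO and −29.8 points in dBRD9-A over the members. The standard error of the averaged dBRD9-A difference had a median of 7.40 points over the members and a range from 2.86 to 10.6. A shift of a few points in a single region could therefore not be resolved. Even the largest averaged difference of a member, 22.6 points, was not called by limma. The lack of calls thus does not exclude shifts of that size in a single region.

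The 3 members with the largest averaged dBRD9-A difference were examined, and none passed the test. They were named for that difference, so groups of 3 libraries without overlap are favoured by the choice. At chromosome 7, 5452740 to 5453165, the percentile was 47.1, 36.3 and 46.1 in GFP DMSO and 69.6, 75.5 and 80.1 in GFP dBRD9-A. It was 24.1, 4.92 and 6.46 in SMARCB1 DMSO and 22.7, 31.3 and 21.3 in SMARCB1 dBRD9-A. The averaged difference was 22.6 ± 7.26 points (SE), with a limma adjusted p of 0.910. The groups did not overlap in GFP cells and overlapped in SMARCB1 cells.

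At chromosome 1, 205242712 to 205242840, the difference was −19.6 ± 7.97 points (SE; limma adjusted p 0.940). It lay in GFP cells, with 50.8, 91.0 and 75.4 in DMSO and 47.9, 23.5 and 29.4 in dBRD9-A, while the SMARCB1 libraries were between 1.05 and 19.1 throughout. A gained region lay 0.249 kb away, the shortest such distance of any member. At chromosome 7, 1099180 to 1099705, the difference was 19.3 ± 5.69 points (SE; limma adjusted p 0.874). The percentile was 47.8, 48.3 and 24.9 in SMARCB1 DMSO and 63.9, 81.1 and 66.6 in SMARCB1 dBRD9-A, so that the groups did not overlap, and it was 85.2 or more in each GFP library.

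The same measure could be read in libraries that had not chosen the regions. These carry the same replicate numbers as the choosing libraries, and 11 of 12 libraries correlated best with their own number. In both directions, the choosing and the read libraries may therefore not be independent. The rule applied to the 6 DMSO libraries alone took 1726 regions, 9.56% of the shared regions under 1000 bp. In the 6 dBRD9-A libraries, which took no part in that choice beyond having a peak, 1392 of them (80.6%) were again lower with SMARCB1, against 53.5% of all shared regions under 1000 bp. Their median difference was −11.2 points, against −0.959, and 391 (22.7%) met the rule again, where 7.86% of all met it. By limma on the 6 dBRD9-A libraries, with adjustment over all 18114 regions, 13 of the 1726 were called lower at an adjusted p under 0.05, beside 0.105% of all regions. All 13 were among the 272 members, which the rule largely fixes, since the same dBRD9-A values also chose the members; the result is one on the 1726 regions.

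The mirror choice gave like values. The rule applied to the dBRD9-A libraries alone took 1419 regions (7.86%), and in the DMSO libraries 1162 of them (81.9%) were lower with SMARCB1, against 53.4% of all. Their median difference was −12.0 points, against −0.884, and the 391 regions that met the rule again were 27.6% of them. By limma on the DMSO libraries 22 were called lower, beside 0.204% of all regions. All 22 were members, which is again largely fixed by the rule.

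The number of single regions called in libraries outside the choice changed when most of those libraries were left out. The 13 calls became 0, 1 and 1 without GFP dBRD9-A replicates 1, 2 and 3, and 2, 9 and 2 without SMARCB1 dBRD9-A replicates 1, 2 and 3. The 22 calls became 3, 2 and 5 without GFP DMSO replicates 1, 2 and 3, and 0, 3 and 2 without SMARCB1 DMSO replicates 1, 2 and 3. Libraries that took part in the choice were also left out. The 22 calls became 41, 46 and 29 without GFP dBRD9-A replicates 1, 2 and 3. They became 23, 29 and 21 without SMARCB1 dBRD9-A replicates 1, 2 and 3. The choice then took 2207 to 2656 regions in place of 1419. The 13 calls became 14 to 18 without a DMSO library.

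**Figure D5:**
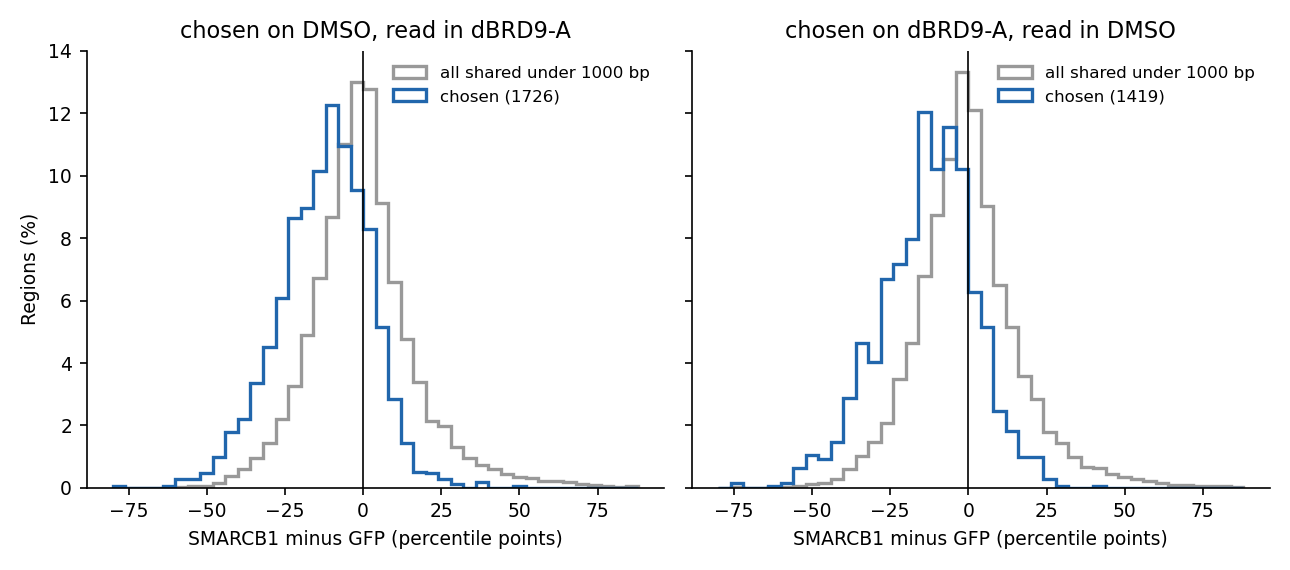
Histograms show the share of regions (vertical, percent) by the difference in mean fold percentile, SMARCB1 minus GFP (horizontal, points), in the treatment that did not choose them; blue lines are the chosen regions and grey lines all shared regions under 1000 bp. The chosen regions centre on −11.2 points on the left and −12.0 on the right, and all regions on −0.959 and −0.884.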

How the data were processed

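ATAC-seq of 12 libraries gave a narrowPeak list each, per the files. Per the submitters' processing notes the build is hg19 and the tools named, without their roles, include BWA 0.7.12-r1039 and MACS2 2.1.1.20160309; the filter and caller settings are not given in the sources used here. The deposited lists hold, as the authors' peak caller wrote them, an integer score (not used), the fold as a ratio, and −log10 p and −log10 q values, and the summit offset. Whole summit pileups and backgrounds were recovered from the fold (pseudocount 1) and the −log10 p for 100% of peaks, within 0.001. No list repeated another.

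The rule says "value" where the groups must not overlap; it was read as the percentile, and the reading on folds is an alternative added after seeing the data. Members, rules and lists were chosen with earlier results of these data known. limma 3.58.1 (R 4.3.3; cell means of the 4 groups, eBayes with trend, Benjamini-Hochberg over all 18114 regions, threshold 0.05) tested percentiles, and was tested on simulated data. Named were the 8 members of largest difference, the 4 strongest in GFP outside those, the 3 of largest averaged dBRD9-A difference, and 3 on each side of the 10 point threshold. Gene lists, motifs and sequences were planned and not run, since no hg19 genome or annotation was used here. Alternatives were stricter peaks, other merging, cover, measures, scale and variance, a replicate block, other limits, and each library left out.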

Additional observations from a re-analysis of the deposited data

How the results depend on the processing

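The rule took 176 regions from peaks that reach a −log10 q of 5, 107 where peaks had to cover at least 50% of a region and 144 with the folds in place of the percentiles as the values that must not overlap; 173, 106 and 93 of the 272 members were among them. With a library left out it took 336 to 409, the most without SMARCB1 dBRD9-A replicate 2, with 262 of the 272 kept. All 290 values of the difference for the 18 named members under alternatives stayed below 0, and 280 moved by under 1 SD. The rule puts all SMARCB1 libraries of a member below all its GFP libraries. The sign with a library left out was therefore largely fixed by the choice. For the 4 dBRD9-A results, 0 members were called in all 80 alternatives run. Over all regions 3 were called in GFP cells, and 0 to 32 under alternatives, the most by pileup (0 to 8 with a library left out); in SMARCB1 cells 1 was called at most.

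For regions chosen on DMSO and tested in dBRD9-A libraries, 13 were called; for the mirror, 22. The numbers were 1 and 1 with the stricter q, 0 and 0 with 50% cover, 59 and 80 by pileup, 25 and 35 by −log10 p, 26 and 39 without the trend and 64 and 67 on the log2 scale, and 0 to 18 and 0 to 46 with a library left out. With the replicate number as a block they were 23 and 31, and the dBRD9-A results kept 0 members. Whether same-numbered libraries shared a batch is not given in the sources used here. Correlations of deviations from group means between them ran from −0.0584 to 0.206, with 5 of 18 over 0.1. Of the 12 libraries, 11 correlated best with their own number. The libraries thus showed a small likeness by number, which the main fits leave out. The cause of the changes in the numbers called was not tested. Summit pileups of the members ran from 2 to 103 fragments.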
